A study of Arabidopsis thaliana and Cardamine hirsuta and Capsella rubella with 102 samples.

Results

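The non-specific phospholipase C (NPC) family of *A. thaliana* has 6 members, NPC1 to NPC6, which were followed in RNA-seq count tables from seedlings treated with flg22. The members were taken by their gene identifiers, AT1G07230 (NPC1), AT2G26870 (NPC2), AT3G03520 (NPC3), AT3G03530 (NPC4), AT3G03540 (NPC5) and AT3G48610 (NPC6). All 6 have a row in each *A. thaliana* table, among 27416 genes. In the other species a member was taken only where the study's lists name a single ortholog, which was the case for 3 members (NPC1, NPC3 and NPC4). NPC3 and NPC4 are in a list chosen on the flg22 response at 1 h, and the family was picked with results at 1 h known. The flg22 contrast at 1 h is therefore a description here, with no P-value given for a member, and a member past the threshold at 1 h is no independent result.

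NPC enzymes cleave common membrane phospholipids such as phosphatidylcholine and release diacylglycerol and a phosphorylated head group. Diacylglycerol can be turned into phosphatidic acid by diacylglycerol kinases, a lipid signal in plant immunity, or into galactolipids when phosphate is scarce. NPC4 and NPC5 are known for roles under phosphate starvation, NPC2 and NPC6 for membrane lipid synthesis and gametophyte development, and NPC1 for heat tolerance.

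At an age of 12 days, seedlings received medium alone (mock) or flg22 at 1 µM, a peptide of bacterial flagellin that is sensed by the receptor FLS2. The species experiment compared *E. salsugineum*, *C. hirsuta*, *C. rubella* and the *A. thaliana* accession Col-0 at 1, 9 and 24 h, and the accession experiment compared Kn-0, Can-0, No-0, Gy-0 and Kon, also *A. thaliana*, at 1 h. Each of the 34 groups had 3 libraries from 3 independent experiments, each library a pool of whole seedlings, and no group carried a transgene or mutation. The 102 libraries held 14039779 to 36897285 counts on genes. Per the paper, the species experiment, with Col-0, had shorter reads from another sequencer model than the 5 accessions. Differences between Col-0 and these accessions cannot be told apart from that. The 5 flg22 response markers were past the DEG threshold in the flg22 libraries of all 6 *A. thaliana* genotypes at 1 h, and shoot and root markers were detected in all groups, with none of the 10 at 0. In such bulk tissue, fewer cells of a type and less RNA per cell cannot be told apart.

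All 6 genes lie on the minus strand (TAIR10.1, RefSeq annotation). NPC3 (chr3:837805-840645), NPC4 (chr3:842499-845096) and NPC5 (chr3:846221-848297) stand in a row with gaps of 1853 and 1124 bases and 0 other protein-coding genes between them. NPC1 (chr1:2220181-2223018), NPC2 (chr2:11456926-11459481) and NPC6 (chr3:18011475-18014204) lie alone. The tandem genes each have 5 coding exons and the other members 3. The coding sequences of NPC4 and NPC5 were 87.3% identical, with a longest identical run of 43 bases, against 69.8% for NPC3 and NPC4 and 66.9% for NPC3 and NPC5. All other pairs were 63.3% to 66.4% identical. Reads of NPC4 and NPC5 could therefore be split between these genes, and their separate values are uncertain to that extent.

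The tandem includes NPC3, whose flg22 response at 1 h set Can-0 apart from the other accessions, a response known when the genes were chosen. The upstream stretches of the tandem genes differed in the 2 motifs searched. The 250 bases before each start site are given from 5′ to 3′ on the gene's strand, with matches in capitals to the W-box core (TTGAC, read on both strands, so that GTCAA is a match on the other strand) and to the phosphate starvation motif P1BS (GNATATNC, which is its own reverse complement).
NPC3 (chr3:840646-840895, minus strand): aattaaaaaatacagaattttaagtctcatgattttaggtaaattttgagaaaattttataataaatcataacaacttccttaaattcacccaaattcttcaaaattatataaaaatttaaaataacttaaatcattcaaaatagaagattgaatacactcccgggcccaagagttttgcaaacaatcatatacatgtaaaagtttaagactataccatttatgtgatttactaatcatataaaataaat
NPC4 (chr3:845097-845346, minus strand): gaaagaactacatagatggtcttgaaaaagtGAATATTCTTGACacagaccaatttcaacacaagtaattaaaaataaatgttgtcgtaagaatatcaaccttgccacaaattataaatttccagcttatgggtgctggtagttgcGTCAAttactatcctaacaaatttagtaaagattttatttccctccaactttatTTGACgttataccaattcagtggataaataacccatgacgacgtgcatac
NPC5 (chr3:848298-848547, minus strand): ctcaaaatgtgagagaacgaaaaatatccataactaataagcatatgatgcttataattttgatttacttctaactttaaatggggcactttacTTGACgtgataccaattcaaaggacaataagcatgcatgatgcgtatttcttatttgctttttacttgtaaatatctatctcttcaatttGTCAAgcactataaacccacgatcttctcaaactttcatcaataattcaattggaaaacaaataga
Over the window from 250 bases before to 50 after the start, NPC4 held 3 W-box cores and 1 P1BS motif, NPC5 held 2 W-box cores, and NPC3 held no match to either. The P1BS match of NPC4 lay at −219 to −212, next to a W-box core at −211 to −207. NPC1 and NPC2 held 2 W-box cores each and NPC6 held 1. Of 27443 promoters of the same length, 50.5% held a W-box core and 6.3% a P1BS motif, so that a W-box core was present in about every other promoter of the genome. These matches describe the Col-0 reference sequence and do not show binding or regulation.

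Without flg22, the members spanned a wide range of levels, and their order was much the same in all accessions. Levels between genes are compared as CPM (counts scaled to a common library size) per kb of annotated exon. In Col-0 mock libraries at 1 h, NPC6 was at 24.8 ± 4.56 CPM per kb (SD, n = 3), followed by NPC1 at 12.2 ± 0.680, NPC3 at 7.48 ± 0.197, NPC2 at 4.56 ± 0.520 and NPC4 at 0.414 ± 0.168. NPC5 had 0 counts in the 3 libraries. No neighbours in this order overlapped between libraries. The same order from NPC6 down to NPC5 held in the mock libraries of all 5 accessions. The only neighbours that overlapped there were NPC3 at 1.98 ± 0.494 and NPC2 at 1.42 ± 0.452 CPM per kb in Can-0.

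The NPC3 response at 1 h differed most in the accession Can-0. The other tandem genes, NPC4 and NPC5, were also higher after flg22 there, as NPC5 was in every *A. thaliana* genotype. NPC3, which has been described as a lysophosphatidic acid phosphatase, was at 3.54, 4.95 and 3.11 CPM in Can-0 mock libraries 1, 2 and 3 and at 32.0, 63.1 and 58.1 CPM in the flg22 libraries of the same numbers. The flg22 libraries were all above the mock libraries, as in 17.0% of tested genes in Can-0, and the log2 fold change was 3.68 ± 0.20 (SE). In Col-0 the 3 mock libraries held 14.5, 15.0 and 14.2 CPM of NPC3 and the flg22 libraries 22.4, 13.5 and 15.3 CPM, so that the groups overlapped. The log2 fold change of NPC3 in the other *A. thaliana* genotypes was 0.21 ± 0.19 in Col-0, 0.13 ± 0.14 in Gy-0, −0.39 ± 0.27 in Kn-0, 0.10 ± 0.22 in Kon and 0.13 ± 0.21 in No-0. One of the 5 shoot markers, LHCB2.1, was lower past the DEG threshold in Can-0 at 1 h (log2 fold change −1.12), with summed shoot markers at 6167 to 16207 CPM in flg22 and 9401 to 18806 CPM in mock libraries, and its part in these values was not tested. Within replicate pairs, the log2 ratio of flg22 to mock was 3.14 to 4.18 in Can-0 and −0.93 to 0.62 in the 15 pairs of the other *A. thaliana* genotypes. Per kb, NPC3 moved from the third place in mock to the first place after flg22 in Can-0, at 26.2 ± 8.59 CPM per kb, where it overlapped with NPC6 at 19.0 ± 4.08.

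NPC4, a plasma membrane enzyme that also acts on sphingolipids, showed a smaller difference in the same accession at a much lower level. Its Can-0 mock libraries held 8, 14 and 13 counts (0.363, 0.845 and 0.792 CPM) and its flg22 libraries 36, 67 and 111 counts (1.71, 3.35 and 6.72 CPM). All flg22 libraries were above all mock libraries, as in 17.0% of tested genes in Can-0, with a log2 fold change of 2.46 ± 0.34. In the other *A. thaliana* genotypes the log2 fold change ranged from −0.28 ± 0.43 in Kn-0 to 1.15 ± 0.52 in No-0, and the groups overlapped in all 5. The highest of their 15 replicate pairs was at 1.67 and the lowest of the Can-0 pairs at 1.86, so that the pairs came close to each other.

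NPC5 was nearly silent in mock libraries and had more counts after flg22 in every *A. thaliana* genotype at 1 h. Over the 3 mock libraries its counts summed to 0 in Col-0, 1 in Can-0, 0 in Gy-0, 2 in Kn-0, 2 in Kon and 2 in No-0. The flg22 libraries held 6, 3 and 1 counts in Col-0, 12, 33 and 30 in Can-0, 16, 13 and 3 in Gy-0, 8, 12 and 2 in Kn-0, 40, 55 and 25 in Kon, and 4, 11 and 27 in No-0. All flg22 libraries were above all mock libraries in each of the 6 genotypes, as in 16.1% (Gy-0) to 20.2% (No-0) of tested genes. NPC5 was itself among the tested genes in Can-0 and Kon alone, so that elsewhere these shares are of genes with more counts. The level in the flg22 libraries was highest in Kon at 2.29 ± 0.803 CPM. From the summed counts, the ratio of flg22 to mock was 78.3 in Kon (95% counting interval 21.2 to 653.8), 71.7 in Can-0 (12.5 to 2869), 29.7 in No-0 (7.73 to 253.3) and 14.0 in Kn-0 (3.44 to 122.9). Against a floor of 3 counts over the mock group, NPC5 was 14.5-fold higher in Gy-0 and 3.21-fold higher in Col-0. Both of these values take the flg22 counts as exact and are not lower limits. The intervals cover counting error only, and those of the 4 accessions overlapped. NPC5 passed the filter of a mean of 10 counts in Can-0 and Kon alone, through its flg22 libraries. In Kon, NPC5 with 120 counts over the flg22 libraries exceeded NPC4, its closest relative, with 54 counts.

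**Figure D1:**
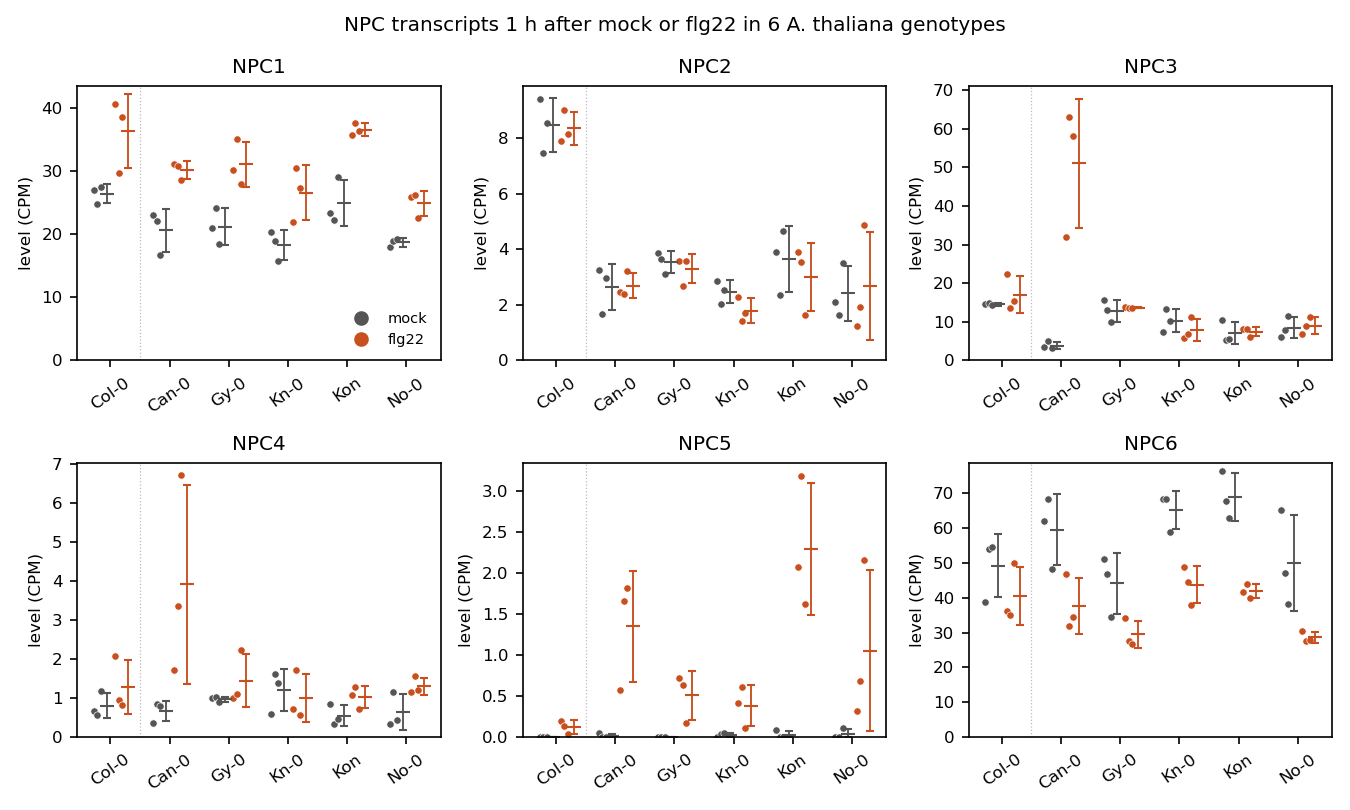
Levels of the 6 NPC transcripts in CPM 1 h after mock (grey) or flg22 (orange) in Col-0 and 5 accessions. Points are the 3 libraries and bars the mean ± SD, cut at 0. Col-0 is set apart, as its CPM were scaled in another table and its read length and sequencer differed. NPC3 in Can-0 went from 3.11 to 4.95 CPM in mock to 32.0 to 63.1 CPM after flg22, NPC5 was near 0 in all mock groups, and NPC6 was lower after flg22 in all 5 accessions.

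NPC1, an endoplasmic reticulum enzyme, was higher after flg22 in all 9 genotypes at 1 h, by a similar modest amount in 8 of them. Its log2 fold change was 0.44 ± 0.17 to 0.58 ± 0.10 in the 5 accessions, 0.45 ± 0.12 in Col-0, 0.56 ± 0.15 in *C. rubella* and 0.76 ± 0.32 in *C. hirsuta*. In *E. salsugineum* the ortholog Thhalv10007332 was at 26.7, 34.2 and 30.4 CPM in mock libraries and at 176, 181 and 174 CPM in flg22 libraries, with a log2 fold change of 2.56 ± 0.16. The 3 *E. salsugineum* pairs had log2 ratios of 2.40 to 2.72, while the highest of the other 24 pairs was 0.97. All 27 pairs were above 0, and how many of all genes have the same sign in all pairs was not counted. The flg22 libraries were above the mock libraries without overlap in all 9 genotypes, as in 19.8% of tested genes in Col-0, 25.4% in *C. rubella*, 24.2% in *C. hirsuta*, 20% in *E. salsugineum*, 17.0% in Can-0, 16.1% in Gy-0, 17.4% in Kn-0, 20% in Kon and 20.2% in No-0.

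NPC6, an enzyme of plastid and other membrane lipid synthesis, was lower after flg22 in all 18 *A. thaliana* pairs at 1 h, a consistency whose share over all genes was not counted. In Kon, for example, mock libraries held 76.3, 67.7 and 62.9 CPM and flg22 libraries 41.7, 44.04 and 40.1 CPM. The log2 fold change was −0.72 ± 0.14 in Kon, −0.75 ± 0.16 in No-0, −0.66 ± 0.15 in Can-0, −0.57 ± 0.14 in Kn-0, −0.54 ± 0.11 in Gy-0 and −0.30 ± 0.15 in Col-0. The groups did not overlap in the 5 accessions, as in 13.4% of tested genes in this direction in Can-0, 14.1% in Gy-0, 15.5% in Kn-0, 17.6% in Kon and 20.2% in No-0, and overlapped in Col-0. At 1 h the root marker EXPA7 was higher past the threshold in Kon (1.34 ± 0.17) and No-0 (1.59 ± 0.18) and TIP2;3 lower in Col-0 (−2.35 ± 0.26), 1 of 5 in each. The summed root markers were at 1470 to 2401 CPM in flg22 and 1177 to 2244 CPM in mock libraries of Kon, 1076 to 1342 and 983 to 1960 CPM in No-0, and 1697 to 2487 and 1799 to 2156 CPM in Col-0. Their part in the values of NPC5 and NPC6 was not tested. NPC2, whose enzyme is needed for gametophyte development together with NPC6, had log2 fold changes between −0.47 ± 0.29 and 0.07 ± 0.36, and its groups overlapped in all 6 genotypes.

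Past the DEG threshold (adjusted P-value below 0.01 and absolute log2 fold change above 1) at 1 h were NPC3 and NPC4 in Can-0, where 16.4% of the tested genes passed, and NPC1 in *E. salsugineum* (12.4%). NPC5 was also past it in Can-0 and in Kon (20.4%), but it entered both fits through its flg22 libraries alone. The count filter thus set where NPC5 was tested, and nothing is read from its passing. With no filter it also passed in Gy-0 and No-0. Without replicate 3, NPC4 and NPC5 no longer passed in Can-0, and with no replicate block NPC4 did not. With the count filter, no member was past the threshold in Col-0 (11.9%), Gy-0 (14.8%), Kn-0 (9.21%), No-0 (20.7%), *C. rubella* (19.9%) or *C. hirsuta* (13.9%). As these values took part in the choice of the family and its orthologs, nothing is read from the counts. Among 3 orthologs, NPC3 in *C. rubella* had a log2 fold change of 0.60 ± 0.16 with no overlap between groups, as in 25.4% of tested genes there. In *C. hirsuta* and *E. salsugineum* NPC3 was at 0.08 ± 0.23 and 0.20 ± 0.22. NPC4 was at 0.32 ± 0.38 in *E. salsugineum*, 0.18 ± 0.30 in *C. hirsuta* and 0.76 ± 0.38 in *C. rubella*, with overlapping groups in each.

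**Figure D2:**
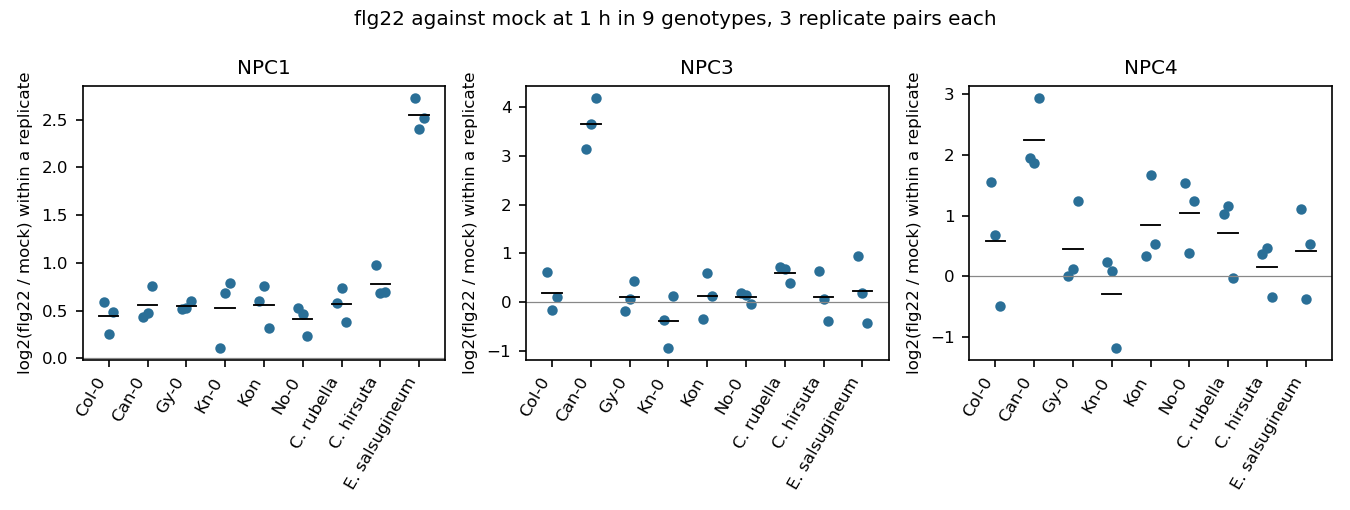
Log2 ratio of flg22 to mock within each of 3 replicate pairs at 1 h for NPC1, NPC3 and NPC4 in 9 genotypes; points are pairs, short lines their means, and each panel has its own scale. NPC1 stood at 2.40 to 2.72 in E. salsugineum, NPC3 at 3.14 to 4.18 in Can-0, and the lowest Can-0 pair of NPC4 at 1.86 was close to a Kon pair at 1.67.

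The libraries at 9 and 24 h took no part in the lists at 1 h and were tested with the quasi-likelihood F-test of edgeR. None of 28 tests of a member passed the DEG threshold with edgeR, and none did with DESeq2 or limma-voom, while 10 of 28 had an unadjusted P-value below 0.05 with each of these tools. With edgeR this is 35.7% of the tests, within the range of the share over all genes, which was 20.9% to 45.9% in the 8 comparisons. Over all genes, 11.1% and 7.23% passed at 9 and 24 h in Col-0. The shares were 2.63% and 3.08% in *E. salsugineum*, 6.54% and 1.36% in *C. hirsuta* and 2.27% and 7.66% in *C. rubella*.

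NPC1 was higher after flg22 in nearly all pairs at these times. In Col-0 at 9 h its mock libraries held 22.1, 22.0 and 27.1 CPM and its flg22 libraries 36.5, 31.4 and 37.9 CPM. The groups did not overlap, as was the case for 21.0% of all tested genes in this direction, and the log2 fold change of 0.57 ± 0.12 had an adjusted P-value of 0.00185 (edgeR, n = 3), below the fold threshold of a DEG. At 24 h in Col-0 it was 0.38 ± 0.12 (adjusted P-value 0.0408). In *E. salsugineum* the log2 fold change was 0.51 ± 0.15 (0.0512) at 9 h and 0.53 ± 0.15 (0.0338) at 24 h, with edgeR adjusted P-values in parentheses. It was 0.39 ± 0.32 (0.390) and 0.99 ± 0.32 (0.0807) in *C. hirsuta*, and 0.30 ± 0.15 (0.25) and 0.58 ± 0.15 (0.0119) in *C. rubella*. The groups of NPC1 did not overlap in Col-0 at 24 h (17.0% of tested genes in this direction), in *C. rubella* at 9 and 24 h (11.3% and 19.4%) or in *E. salsugineum* at 9 h (11.6%). NPC1 was higher in 23 of 24 replicate pairs at these times, the exception being a *C. hirsuta* pair at 9 h with a log2 ratio of −0.06. The share of all genes with such a count of pairs was not determined. In *E. salsugineum*, the 1 h flg22 libraries at 174 to 181 CPM were above the 9 h flg22 libraries at 75.4, 73.3 and 77.8 CPM and the 24 h flg22 libraries at 34.4, 53.8 and 57.0 CPM.

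No tandem gene passed the threshold at 9 or 24 h. NPC4 in Col-0 at 24 h was at 2.33, 1.68 and 2.22 CPM in mock and 1.02, 1.04 and 1.40 CPM in flg22 libraries, without overlap, as in 13.3% of tested genes in this direction. Its log2 fold change of −0.85 ± 0.38 had an adjusted P-value of 0.131 (edgeR). At 9 h its Col-0 groups did not overlap either, as in 20.3% of tested genes in this direction, with −0.35 ± 0.40 (0.514). NPC3 had a log2 fold change of −0.15 ± 0.19 at 9 h and −0.23 ± 0.19 at 24 h in Col-0, and of 0.47 ± 0.16 at 24 h in *C. rubella* (edgeR adjusted P-values 0.570, 0.422 and 0.0436). NPC5 in Col-0 had 12 counts after flg22 and 3 in mock at 9 h, a ratio of 4.64 with a 95% counting interval of 1.25 to 25.6, and 1 and 0 counts at 24 h. It did not pass the count filter in Col-0. NPC6 and NPC2 were tested in Col-0 alone. NPC6 was lower in all 6 pairs of these times, with log2 fold changes of −0.40 ± 0.15 and −0.12 ± 0.15 (edgeR adjusted P-values 0.0519 and 0.620), and NPC2 was at −0.15 ± 0.19 and 0.50 ± 0.19 (0.564 and 0.0772). The share of all genes with the same sign in all 6 pairs was not counted, and same-numbered Col-0 libraries at 24 h hardly deviated together.

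At these times root markers moved with the treatment in Col-0. Of 5 root markers, 4 were lower past the DEG threshold at 9 h and 2 at 24 h, and their summed level was 1443 to 1836 CPM in flg22 against 2619 to 2885 CPM in mock libraries at 9 h, and 1062 to 1700 against 2033 to 2534 CPM at 24 h. None of the 5 shoot markers passed, with sums of 9339 to 13073 against 13015 to 15972 CPM at 9 h and 11723 to 15618 against 12033 to 18747 CPM at 24 h. Their part in the values of the NPC genes was not tested.

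Whether the flg22 effect differed among the 4 species was tested over 4365 orthologs that the study's lists name, of which 8.0% differed at 9 h and 6.51% at 24 h (adjusted P-value below 0.01). For NPC1, the lowest and highest species effects were 0.27 apart on the log2 scale at 9 h and 0.62 at 24 h (edgeR adjusted P-values 0.890 and 0.472). For NPC3 they were 0.59 and 0.72 apart (0.445 and 0.255), and for NPC4 0.88 and 1.02 (0.610 and 0.396). None of these 6 tests had an unadjusted P-value below 0.05 with edgeR, DESeq2 or limma-voom, and none was past the threshold with any of them. A missed threshold does not show that the species responded alike.

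**Figure D3:**
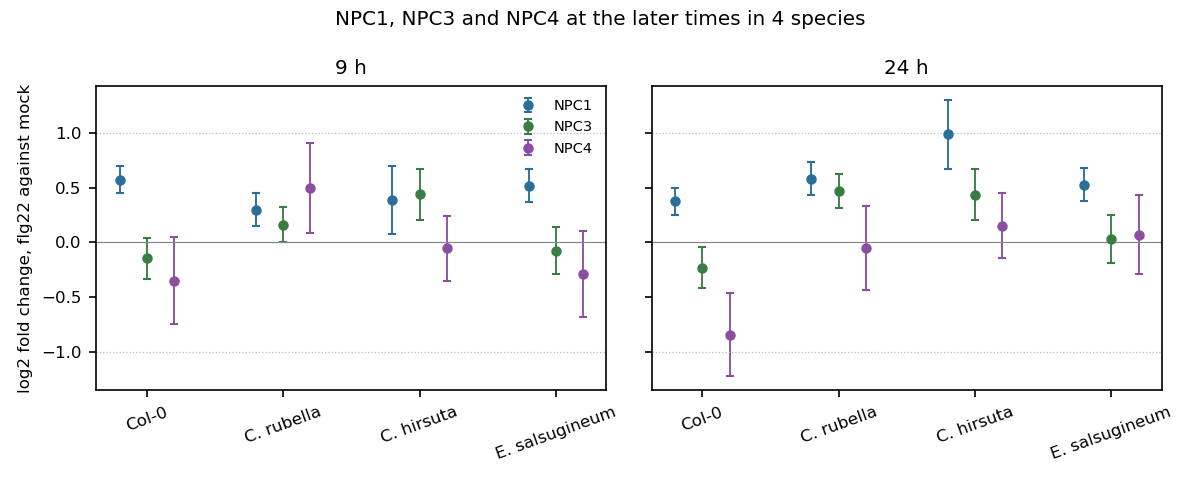
Log2 fold change of flg22 against mock at 9 h (left) and 24 h (right) for NPC1, NPC3 and NPC4 in 4 species; points are edgeR estimates, bars ± 1 SE (n = 3), and dotted lines mark the fold threshold of a DEG. NPC1 was above 0 in all 8 cases, from 0.30 to 0.99, and no member passed the DEG threshold.

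Levels without flg22 were compared over time within each species. These contrasts share the 1 h mock libraries, and time in the plates and time of day cannot be told apart. The same mock libraries entered the flg22 contrast at 1 h, which was known when the family was picked, so the tests are not fully independent of that choice. In Col-0, NPC6 was at 38.7, 54.1 and 54.7 CPM at 1 h, 32.5, 31.8 and 37.4 CPM at 9 h and 93.8, 84.2 and 120.0 CPM at 24 h. All 24 h libraries were above all others, and 19.8% of tested genes had all 24 h above all 1 h libraries. NPC6 rose by a log2 fold change of 1.00 ± 0.15 from 1 to 24 h (edgeR adjusted P-value 1.10e-04), at the edge of the fold threshold. Of 5 tested members it was the only one past the DEG threshold, which 9.22% of all genes passed. The call was lost without replicate 1 (0.88, adjusted P-value 0.0175), without replicate 3 (0.93) and with no filter on low counts (0.99). NPC6 was at −0.54 ± 0.15 from 1 to 9 h (0.0157), where 8.07% of all genes and no member passed.

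Other members differed over the same hours without passing the threshold. NPC4 was at 0.658, 0.569 and 1.17 CPM at 1 h and at 2.33, 1.68 and 2.22 CPM at 24 h, without overlap, as in 19.8% of tested genes in this direction. Its log2 fold change of 1.38 ± 0.39 had an adjusted P-value of 0.0122 with edgeR, 0.00306 with DESeq2 and 0.00856 with limma-voom, so that the call depended on the tool. NPC2 was at 9.41, 7.47 and 8.57 CPM at 1 h and at 4.16, 5.90 and 3.71 CPM at 24 h, again without overlap, as in 18.3% of tested genes in this direction. Its log2 fold change was −0.91 ± 0.19 (edgeR adjusted P-value 0.00164), short of the fold threshold. NPC3 and NPC1 were at 0.46 ± 0.19 (0.0695) and −0.37 ± 0.12 (0.0301). The summed shoot markers were at 22205 to 27458 CPM in the 1 h and 12033 to 18747 CPM in the 24 h mock libraries, with 1 of 5 lower past the threshold. The summed root markers were at 1799 to 2156 and 2033 to 2534 CPM, with 1 of 5 (COBL9) higher past it, and 2 of 5 flg22 markers, FRK1 at 3.86 ± 0.43 and WRKY30 at 2.51 ± 0.40, were also higher in mock at 24 h. Their part in these values was not tested. In the other 3 species, 0 of 18 tests passed with edgeR and 2 (11.1%) had an unadjusted P-value below 0.05, against 30.6% to 41.2% of all genes in the 6 comparisons, with log2 fold changes of −0.89 to 0.81, and none passed with DESeq2 or limma-voom. Over all genes, 7.28% (9 h) and 5.87% (24 h) passed for *E. salsugineum*, 9.12% and 5.36% for *C. rubella*, and 6.35% and 6.57% for *C. hirsuta*. The highest was NPC1 in *E. salsugineum* from 1 to 9 h, at 26.7, 34.2 and 30.4 against 49.6, 51.1 and 58.7 CPM, with 0.81 ± 0.15 and an edgeR adjusted P-value of 0.00124. Its 1 h mock libraries are also the ones its flg22 fold change at 1 h was computed against, so this value is not independent of the choice.

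**Figure D4:**
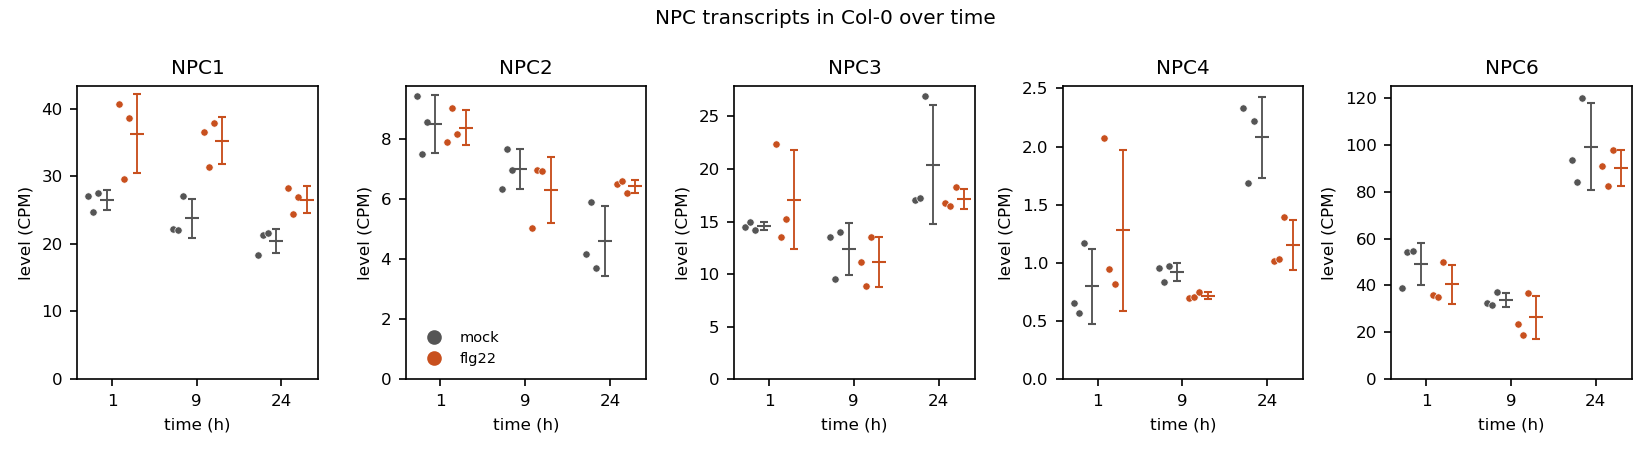
Levels in CPM of 5 NPC transcripts in Col-0 at 1, 9 and 24 h of mock (grey) or flg22 (orange) treatment; points are the 3 libraries, bars the mean ± SD, and each panel has its own scale from 0. NPC6 mock libraries at 24 h (84.2 to 120.0 CPM) were above those at 1 and 9 h, NPC2 mock libraries were lowest at 24 h, and NPC1 flg22 libraries were above mock at each time.

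Some genes of the phosphate starvation list rose over the same hours in Col-0 mock libraries. Of 7 tested, 3 rose from 1 to 9 h and 4 from 1 to 24 h, beside 5.08% and 5.84% of all genes, with a median log2 fold change of 1.82 at 24 h beside 0.02 over all genes. From 1 to 24 h, PAP17 rose by 4.49 ± 0.37 (edgeR adjusted P-value 2.86e-07), SPX1 by 3.64 ± 0.40 (4.27e-06), PHT1;4 by 2.16 ± 0.24 (5.90e-06) and GDPD1 by 1.82 ± 0.33 (5.00e-04). SPX2 at 0.99 ± 0.14 and PHT1;1 at 0.96 ± 0.19 stayed below the fold threshold. Of 12 phospholipases D, 1 passed, PLDZETA2, which is known for lipid turnover under phosphate starvation (1.44 ± 0.29, edgeR adjusted P-value 0.00126). Of 7 galactolipid and sulfolipid genes, 1 passed, the monogalactosyldiacylglycerol synthase MGD3 (edgeR adjusted P-value 1.08e-04). It rose from at most 0.177 CPM in the 1 h libraries to 4.69 to 10.3 CPM in the 24 h libraries. PLDZETA2 and MGD3 were named after their values were seen. Of 4 phosphate signalling regulators 0 passed, with a median of −0.35. NPC4 missed the threshold with edgeR (adjusted P-value 0.0122), and NPC5 had 0 counts in mock at 1 and 24 h. A part of phosphate supply in these values was not tested, and time in the plates and time of day cannot be told apart.

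Basal levels were compared among the mock libraries of the 5 accessions. NPC3 was at 15.7, 13.0 and 9.98 CPM in Gy-0, 7.38, 13.3 and 10.2 CPM in Kn-0, 5.99, 7.95 and 11.5 CPM in No-0, 10.4, 5.33 and 5.56 CPM in Kon and 3.54, 4.95 and 3.11 CPM in Can-0. Can-0 had the lowest mean at 3.86 ± 0.962 CPM (SD, n = 3), and neighbours among Gy-0, Kn-0, No-0 and Kon overlapped. NPC3 differed among the accessions with a span of 1.74 on the log2 scale (edgeR adjusted P-value 0.00393), a threshold that 13.0% of genes passed. In Can-0 it was lower than the mean of the other 4 by a log2 fold change of −1.29 ± 0.28 (0.00271), past the DEG threshold as 4.65% of genes were. In Gy-0 it was at 0.88 ± 0.24 (0.0211), where 3.41% of genes passed. These Can-0 mock libraries are the ones its 1 h fold change was computed against, and NPC3 was listed on that response, so the lower basal level is not independent of the choice. The call also rested on few libraries, since the adjusted P-value for Can-0 was 0.0148, 0.0586 and 0.0343 without replicate 1, 2 and 3, and that for any difference was 0.170 without replicate 2 and 0.0216 without replicate 3.

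For the other tested members, the spans were 0.44 for NPC1, 0.60 for NPC2, 1.13 for NPC4 and 0.64 for NPC6 (edgeR adjusted P-values 0.214, 0.516, 0.364 and 0.0751). NPC6 passed with DESeq2 (0.00914) and with a replicate block (0.00219). Its mock levels ran from 44.2 ± 8.70 CPM in Gy-0 over 50.1 ± 13.7 in No-0, 59.6 ± 10.2 in Can-0 and 65.2 ± 5.48 in Kn-0 to 69.0 ± 6.79 CPM in Kon, and each neighbour in this order overlapped with the next.

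Among enzymes that make or use diacylglycerol and phosphatidic acid, several were higher at 1 h in most *A. thaliana* genotypes, in lists fixed with earlier results known. Of 7 diacylglycerol kinases, which phosphorylate diacylglycerol, 5 were tested and 3 were past the DEG threshold in Col-0, all higher, beside 9.64% of all genes. DGK5 had a log2 fold change of 1.60 ± 0.13 in Col-0 and 2.50 ± 0.15 in Can-0, DGK7 of 1.78 ± 0.14 and 1.99 ± 0.14, and DGK2 of 1.12 ± 0.19 and 0.98 ± 0.16. DGK5 and DGK7 passed in all 5 accessions, where 7.57% (Kn-0) to 13.6% (No-0) of all genes were higher past the threshold. Of 12 phospholipases D, which release phosphatidic acid directly, 2 passed in Col-0, PLDGAMMA1 at 3.16 ± 0.20 and PLDBETA2 at 2.14 ± 0.21, and PLDGAMMA1 passed in all 5 accessions. LPP1, a phosphatidate phosphatase, passed in all 6 genotypes, at 2.30 ± 0.19 in Col-0 and 3.11 ± 0.25 in Can-0, as the only 1 of 5 in its list. Of 9 phosphoinositide-specific phospholipases C, which act on inositol lipids, 0 of 8 tested passed in Col-0 at 1 h, PLC5 passed in Kon and PLC3 in No-0. At 9 and 24 h in Col-0, DGK5 was at 0.48 ± 0.13 and 0.65 ± 0.13 (edgeR adjusted P-values 0.00801 and 0.00143), below the fold threshold, while LPP1 rose at both times, as 6.51% and 6.06% of all genes did (2.04 ± 0.18 and 1.57 ± 0.18, edgeR adjusted P-values 3.77e-07 and 7.58e-06) and PLDGAMMA1 at 24 h (1.30 ± 0.19, 8.85e-05). The medians of the lists at 1 h in Col-0 were 1.12 for diacylglycerol kinases, 0.58 for phospholipases D, 0.30 for phosphoinositide-specific phospholipases C and 0.06 for phosphatidate phosphatases, beside −0.09 over all genes.

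Genes tied to phosphate starvation and galactolipids showed no common direction after flg22. Of 7 tested phosphate starvation genes in Col-0, 1 was higher past the threshold at each time, beside 9.64%, 6.51% and 6.06% of all genes at 1, 9 and 24 h. SPX1, a phosphate sensor, was at 1.40 ± 0.38 at 1 h, and the phosphate transporter gene PHT1;4 rose at 9 h (1.94 ± 0.24, edgeR adjusted P-value 1.28e-05) and 24 h (1.56 ± 0.23, 1.02e-04). In the accessions at 1 h, SPX1 was between −0.38 ± 0.19 and 0.17 ± 0.26, the acid phosphatase gene PAP17 was lower past the threshold in Can-0 (−1.88 ± 0.16), Gy-0 (−1.29 ± 0.15) and Kon (−1.44 ± 0.18), and GDPD1, a glycerophosphodiester phosphodiesterase, was higher past it in Can-0 (1.23 ± 0.18), Kon (1.56 ± 0.15) and No-0 (1.27 ± 0.20). Of 7 galactolipid and sulfolipid synthesis genes, MGD2 fell at 9 h in Col-0 (−1.29 ± 0.32, edgeR adjusted P-value 0.00480), as 4.55% of all genes did, and the list's median at that time was −0.56 beside −0.02 over all genes. At 1 h, DGD2 was higher past the threshold in Can-0 (1.02 ± 0.19) and DGD1 lower past it in Kon (−1.05 ± 0.19) and No-0 (−1.16 ± 0.20), with none in Col-0, Gy-0 or Kn-0. Over all genes at 1 h, 11.3% were higher past it in Can-0, 12.9% in Kon and 13.6% in No-0. Lower past it were 5.15% in Can-0, 4.32% in Gy-0, 7.47% in Kon and 7.11% in No-0.

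As a description over the 18 Col-0 libraries, which share treatment and time groups, the members fell apart by pattern. NPC3 and NPC4 had a Pearson correlation of log2 CPM of 0.73 (Spearman's rho 0.71), NPC3 and NPC6 of 0.76 (0.84), and NPC1 and NPC6 of −0.51 (−0.48). Over the 30 accession libraries NPC3 and NPC4 were at 0.75 (0.61), and NPC3 and NPC6 at −0.41 (−0.48). The genes most like NPC3 over the Col-0 libraries were ROF1 (r = 0.94), CLPB3 (0.92) and Hsp70-15 (0.91). Those most like NPC1 were EXO70A1 (0.94), G18F (0.93) and AGD5 (0.93), and those most like NPC6 were CLC-B (0.97), FADA (0.97) and SQP1 (0.97). NPC2 was most like PAR1 (0.85), AT5G62280 (0.84) and AT3G13030 (0.83), and NPC4 most like AT5G47980 (0.87), AT1G72660 (0.83) and UBP23 (0.83). Over the accession libraries the gene most like NPC4 was its tandem neighbour NPC3 (0.75), followed by AT5G22530 (0.74) and AT2G25260 (0.72). NPC3 was most like AT1G77810 (0.79), AT5G15510 (0.79) and GAD (0.77), with Spearman's rho of 0.48, 0.80 and 0.77. These libraries include the Can-0 flg22 libraries at 1 h, in which NPC3 and NPC4 were both high. The likeness of the 2 genes there is therefore not independent of that response.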

How the data were processed

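Libraries of seedling RNA were made with a directional kit. The authors mapped reads with TopHat2 to TAIR10 or version 1.0 genomes and deposited raw counts per gene made with HTSeq (0.6.0 per the labels, beside CASAVA 1.8.2 and cutadapt 1.5). HTSeq leaves out reads that align to several places, which can undercount near-identical genes. Accession reads were mapped to Col-0 and then to genomes corrected for each accession's SNPs, and which mapping the deposited counts hold is not stated. Column names were mapped to samples by genotype, treatment (mk for mock, tr for flg22), time and replicate. All 102 sample columns were used. HTSeq's summary lines, 7.11% to 50.0% of a library, stayed out.

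Genes averaging 10 or more counts over the libraries of a fit were kept and tested with edgeR 4.0.16 (R 4.3.3; TMM factors, quasi-likelihood F-test, Benjamini-Hochberg adjustment over all genes tested), per species over 18 libraries or per accession over 6, with replicate as a block, since mock and flg22 samples of an experiment were handled side by side. Same-numbered samples deviated together from their group means with a correlation above 0.1 in 45 of 51 pairs (median 0.36, lowest −0.07). The Col-0 pairs at 24 h were all below it (0.059, 0.052 and −0.068). The 3 experiments are stated, so that P-values refer to the spread between them. Basal levels (30 libraries) and species differences (72 libraries) were fitted without the block. The standard error was taken as the size of the log2 fold change over √F. CPM use the same factors, set per table for the species and jointly for the accessions, so that levels are not compared between tables. Ratios within pairs were taken on log2 CPM with a prior count of 2. The fits were tested on simulated counts. Alternatives were RLE factors, DESeq2 1.42.0, limma-voom (limma 3.58.1), no count filter, the block left out or added, and each replicate left out. Sums with few counts were given 95% exact (Clopper-Pearson) intervals or a floor of 3 counts.

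The members, gene lists and tests were chosen with earlier results of these data known. Named genes were all members, up to 4 genes per list past the threshold in Col-0 or, at 1 h, in at least 3 accessions, and the 3 genes most correlated with a member. PLC3, PLC5, SPX2, PHT1;1, PLDZETA2, MGD3, DGD1, DGD2, FRK1, WRKY30, LHCB2.1, EXPA7, TIP2;3 and COBL9 were named after their values were seen. Coding sequences were compared in place of the planned comparison of proteins, and promoters were read from the RefSeq TAIR10.1 genome. NPC2, NPC5 and NPC6 were not analysed in the other species.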

Additional observations from a re-analysis of the deposited data

Results flagged for a closer look

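At 9 h, NPC3 was lower after flg22 in all 3 replicate pairs of Col-0 and higher in all 3 pairs of *C. rubella* and *C. hirsuta*, and the mean log2 ratios of the outermost species were 0.60 apart. At 24 h the same species moved in the same directions in all pairs, with means 0.69 apart. Same-numbered Col-0 mock and flg22 libraries at 24 h hardly deviated together (correlations of −0.068 to 0.059), so their pairing carried little information. The mock and flg22 groups of NPC3 overlapped in all 3 species at 9 h and in Col-0 and *C. hirsuta* at 24 h. They did not overlap in *C. rubella* at 24 h, as in 19.4% of tested genes in this direction there. Single log2 ratios were as small as −0.02 in Col-0 at 24 h and 0.06 in *C. rubella* at 9 h. How many of all genes keep the same sign in all pairs was not counted. The difference among the 4 species was tested with edgeR and gave adjusted P-values of 0.445 at 9 h and 0.255 at 24 h, so neither passed the threshold.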

How the results depend on the processing

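For single members, 723 recomputed values kept their direction and side of the threshold or, at 1 h, moved by less than the SD between pairs, 6 changed sign, 5 newly passed, 8 no longer passed and 2 moved further (NPC5 without replicate 1, at 7.93 in Can-0 and 8.49 in Kon). No member passed at 9 or 24 h under any alternative. The number of members past the threshold changed as follows. For Col-0 mock at 24 against 1 h it was 1, and 2 with DESeq2 and with limma-voom (NPC4 added), 0 with no filter on low counts (NPC6 at 0.99) and 0 to 2 with a replicate left out. NPC6 was at 0.88 without replicate 1 and 0.93 without replicate 3, and NPC2 passed at −1.19 without replicate 2. For any basal difference among accessions it was 1, and 2 with DESeq2, 2 with a replicate block (NPC6 added) and 0 to 1 with a replicate left out. For Can-0 against the other accessions it was 1, and 0 without any of the replicates. At 1 h it was 3 in Can-0 and 1 to 3 with a replicate left out (NPC4 and NPC5 lost without replicate 3), 0 in Gy-0 and 1 with no filter, and 0 in No-0, 1 with no filter and 0 to 1 with a replicate left out (NPC5 in each). With no replicate block, NPC4 did not pass in Can-0, and apart from this and the basal NPC6 call the block changed no call of a member.

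With a replicate left out, uncalled values changed sign for NPC4 at 24 h in *C. rubella* (−0.31 to 0.15), *C. hirsuta* (−0.23 to 0.40) and *E. salsugineum* (−0.37 to 0.37) and at 9 h in *C. hirsuta* (−0.14 to 0.0152), and for NPC3 at 24 h in *E. salsugineum* (−0.22 to 0.20). Of 320 alternatives of values given as ranges, 16 had the other sign and 0 of them were called. The share of all genes past the threshold moved by more than 1.5 times with no replicate block in Can-0 (6.40%), Gy-0 (7.25%) and Kon (13.1%) at 1 h and in *E. salsugineum* at 9 and 24 h (1.29% and 1.57%), with a replicate block for basal levels (32.1%) and the species tests (13.3% and 11.6%), and with DESeq2 in *C. rubella* at 9 h (4.04%), *C. hirsuta* at 24 h (2.83%), basal levels (21.2%) and the species test at 24 h (9.97%). With a replicate left out, the lowest share for flg22 was 0.00507% in *C. rubella* at 9 h (without replicate 2) and 3.34% at 24 h (2), in *C. hirsuta* 6.19% at 1 h (2), 1.08% at 9 h (3) and 0.0672% at 24 h (3), for *E. salsugineum* 0.645% at 9 h (3) and 1.14% at 24 h (2), and 5.29% and 4.12% in Col-0 at 9 and 24 h (1), while Kn-0 reached 16.3% (3). For mock over time from 1 h, it was 4.76% and 5.57% in Col-0 at 9 and 24 h (1), 5.18% and 0.74% in *C. rubella* (2), 2.64% and 1.08% in *C. hirsuta* (2) and 3.97% and 1.9% in *E. salsugineum* (3). For basal levels it was 3.59% for any difference, 1.95% for Can-0 and 1.17% for Gy-0 (2 in each), and for the species tests 1.44% and 0.962% (3). The causes were not tested. Mock counts of 0 to 3 limit what can be said of NPC5.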
